A study of Mus musculus with 4 samples.

Results

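The cytosolic ribosomal protein genes encode the protein components of the 60S and 40S subunits of the cytoplasmic ribosome. They were taken as every listed gene whose symbol is Rpl or Rps followed by a number and at most 1 letter, together with the stalk genes Rplp0, Rplp1 and Rplp2 and the gene Rpsa. The rule found 78 of the 15500 listed genes, of which 47 belong to the 60S and 31 to the 40S subunit. A mean FPKM (sequenced fragments relative to transcript length and to the size of the library) of at least 1 over the 4 libraries was reached by 77 of the 78. The remaining member was Rpl3l, a paralog of Rpl3 known from striated muscle, which was listed at 0.00 in Vehicle, CLA and CLA+GW6471 and at 0.05 in GW6471.

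The study asked how dietary conjugated linoleic acid (CLA) acts on the liver of Kunming mice and whether an antagonist of the nuclear receptor PPARα alters this. Male mice, 5 weeks old at purchase, were divided into 4 groups of 6 per the labels. The methods describe only the Vehicle and CLA groups of mice, so the GW6471 and CLA+GW6471 groups rest on the labels alone. Vehicle mice ate chow with 1.5% (w/w) linoleic acid, with vehicle injections where appropriate. CLA mice ate 1.5% (w/w) CLA, an equal mix of the c9,t11 and t10,c12 isomers. GW6471 mice ate the linoleic acid diet with daily intraperitoneal injections of the PPARα antagonist GW6471 at 20 mg/kg, and CLA+GW6471 mice received the CLA diet with the same injections. The labels name no engineered allele, the treatment lasted 28 days, and livers were taken at zeitgeber time 8. Each group is represented by 1 RNA-seq library, and neither the labels nor the methods say whether it came from 1 mouse or from a pool. No replicate error could therefore be computed, no test was made, and every difference compares libraries. A gene was called changed from 1.5-fold. Counting intervals (95%, from exact Clopper-Pearson bounds on estimated reads) cover counting error only.

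The depth estimated from the steps between low values was 18850000 to 19295000 reads per library, and the FPKM summed to between 497015 and 522893. The label liver was checked against 16 hepatocyte markers, of which 13 were listed and 8 had a mean FPKM under 1. Albumin (Alb) had a mean of 922 FPKM, Trf 277, Fgb 76.3, Hnf4a 50.2 and Ass1 21.1. The 8 low ones included transthyretin (Ttr) at 0.03, Apoh at 0.02 and Cyp2e1 at 0.065, so several genes that define hepatocytes were near 0. The gene with the highest mean was Sprr1a, a cornified envelope protein of squamous epithelia, which took 3.02% of the FPKM sum in the CLA library and 5.02% in CLA+GW6471, the lowest and the highest of the 4. The summed hepatocyte markers were 1019 in Vehicle, 1887 with CLA, 1541 with GW6471 and 949 with both. Most of this sum was Alb and Trf. Fibroblast and stellate cell markers summed to between 1148 and 1506, nearly all from Dcn (mean 1323). Endothelial markers summed to 0.51 to 0.94, lymphocyte markers to 0.04 to 0.16 and red blood cell markers to 1.87 to 2.1. Macrophage markers summed to 24.2 to 36.6 and those of other epithelial cells to 29.4 to 36.6. The part of cell content in the results was not tested. Across the 10355 genes tested, those whose FPKM averaged 1 or more, the CLA and GW6471 libraries each lay farther from Vehicle (SD of the log2 ratios 0.41 and 0.31) than CLA+GW6471 did (0.20). In bulk tissue, fewer cells of a type and less RNA per cell cannot be told apart.

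Most ribosomal proteins are needed in equal numbers for assembly with ribosomal RNA, much of it in the nucleolus. Their mRNAs are among the most abundant of a growing cell. Vertebrate ribosomal protein mRNAs begin with a 5′ terminal oligopyrimidine (TOP) tract, a run of C and T through which the mTOR kinase pathway sets their translation. In the liver, ribosome production follows feeding and growth, with mRNAs of this class controlled largely at the step of translation.

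The pyrimidine tract could be looked for in 58 of the 78 genes, for which RefSeq windows from 250 bases before to 50 bases after a listed start (build GRCm38.p6) were at hand. A run of at least 8 pyrimidines lay in the last 150 bases of 52 of the 58 windows (89.7%), against 48.5% of the windows of all 27025 genes. The following windows belong to members that stood at the ends of the ratios described further on, printed 5′ to 3′ on the strand of the gene, with the longest pyrimidine run in capitals. Rpl37a, Rpl22 and Rpl38 were highest in the CLA library, as were 43 of 77 members in all. Rpl37, Rps28 and Rpl34 were lowest in the GW6471 library, as were 70 of the 77.
Rpl37a, chr1:72711275-72711304, plus strand: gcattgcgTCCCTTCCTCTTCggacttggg
Rpl22, chr4:152325679-152325708, plus strand: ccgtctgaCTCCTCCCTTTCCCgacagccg
Rpl38, chr11:114668568-114668597, plus strand: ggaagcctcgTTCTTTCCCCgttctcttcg
Rpl37, chr15:5116632-5116661, plus strand: gcgggggtgCTTTCTCTTCCggtctctttg
Rps28, chr17:33824610-33824639, minus strand: cggacgccataTTCCTTCCgctccgaagga
Rpl34, chr3:130730393-130730422, minus strand: ctgacgcgccgCCTTCCCTgacgtacttcc
Both the members that were high and those that were low in these libraries carried such a run, as did 52 of the 58 windows. Its length went from 8 pyrimidines in Rps28 and Rpl34 to 14 in Rpl22. The listed starts are those of RefSeq and may not be the starts used in these livers. In this table the run of Rpl38 begins 2 bases before the start, that of Rpl37a 23 bases after it, and that of Rps28 66 bases before it.

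Ribosomal protein genes filled the top of the expression range. They made up 7 of the 10 genes with the highest mean FPKM, 33 of the top 50, 55 of the top 100 and 70 of the top 200. Their mean FPKM ran from 25.9 to 4823 with a median of 1196, against a median of 14.3 over the 10355 genes tested. Medians were 1204 for the 60S and 1196 for the 40S genes.

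Rps26, a 40S protein at the mRNA exit channel, had the highest mean level of the group. It stood at 4540.1 FPKM in Vehicle, 5225 with CLA, 4607 with GW6471 and 4920 with both. Rpl41, which encodes a very short peptide of the 60S subunit, followed at 3975, 4944, 3880.1 and 3908 FPKM in the same order. Both were highest in the CLA library. Next came Rpl23a, at the exit of the nascent chain tunnel, with 3487, 3566, 3202 and 3702 FPKM, and Rpl12, at the base of the stalk, with 3305, 3342, 3002 and 3211 FPKM. In these 2 genes the GW6471 library was the lowest. Rpl32, at 2733, 2779, 2460.4 and 2747 FPKM, and Rpl30, at 2702, 2689, 2433 and 2698 FPKM, showed the same low GW6471 library with the other 3 close together.

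At the low end stood Rpl34, with 28.6 FPKM in Vehicle, 25.4 with CLA, 19.3 with GW6471 and 30.3 with both. A copy listed as Rpl34-ps1 had 1348, 1382, 1172 and 1362 FPKM, so how the reads of these near-identical sequences were divided is uncertain. Rps15a, an rRNA-binding 40S protein, had 86.9, 82.7, 69.7 and 85.3 FPKM. The next were Rps27l, at 88.8, 96.2, 73.2 and 96.1 FPKM, and Rpl22, at 87.9, 107, 94.97 and 75.95 FPKM. Rps27l is a paralog of Rps27 that answers to p53, and Rpl22 is a 60S protein with a known part in T cell development. Rps20 (202, 197, 167 and 207 FPKM) and Rpl39 (260.2, 309, 240.1 and 259 FPKM) completed the 6 lowest. Copies elsewhere in the genome are a limit for the whole group. Over the 76 of these 77 members that had a coding sequence in the annotation, a median of 90.8% of the 50-base stretches of that sequence also occurred elsewhere in the genome, and the range was 0 to 100%.

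**Figure D1:**
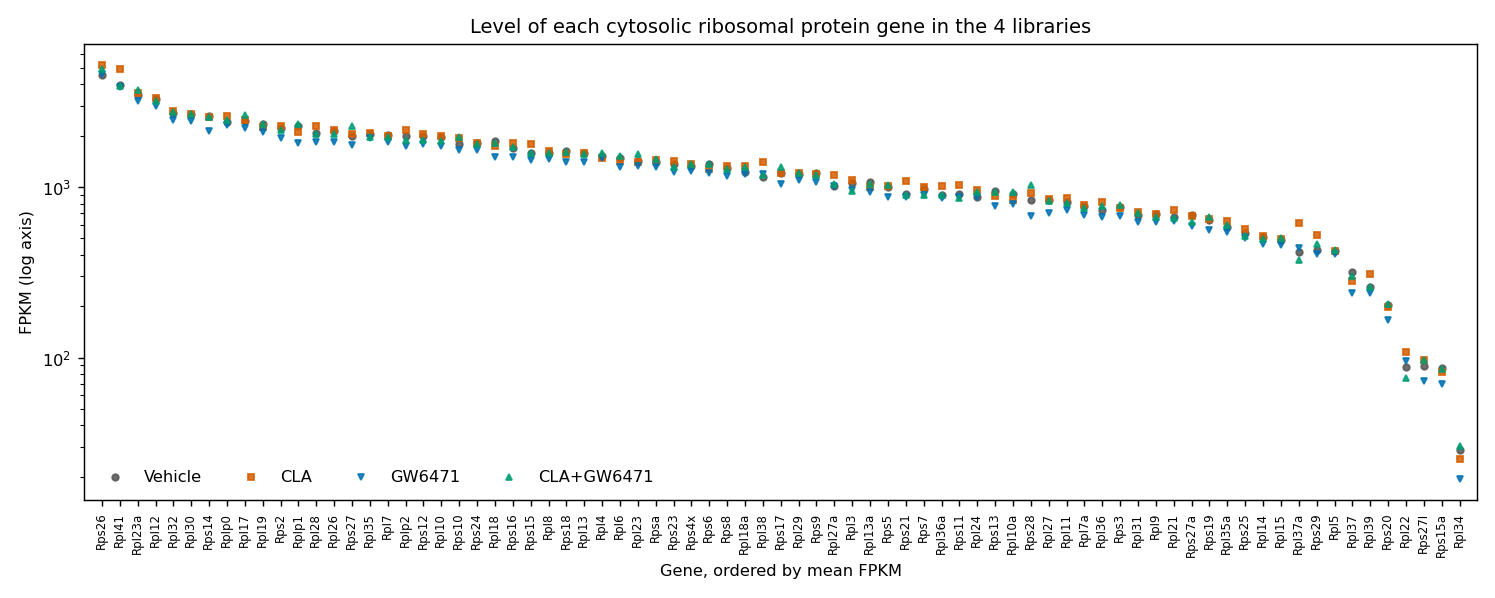
FPKM (log axis) of the 77 ribosomal protein genes with a mean of at least 1, ordered from left to right by mean, with 1 symbol for each of the 4 libraries. Levels fall slowly from 4823 and drop steeply over the last few genes, to 25.9 for Rpl34, and the GW6471 symbol is the lowest of the 4 for 70 of the 77.

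Together the ribosomal protein genes took 20.5% of the FPKM sum in Vehicle, 20.9% with CLA, 19.2% with GW6471 and 20.4% with both. The GW6471 library was thus the low one, by more than 1 percentage point. For the 60S genes the shares were 12.7, 12.9, 11.9 and 12.6%, and for the 40S genes 7.83, 7.998, 7.28 and 7.86%, in the same order of libraries. Both subunits followed the order of the whole group except that the 40S share was slightly higher in CLA+GW6471 than in Vehicle. The FPKM sum of all genes was 14985 lower in GW6471 than in Vehicle, and the ribosomal protein genes made up 9657 of that difference (64.4%). They made up 45.9% of the difference between CLA+GW6471 and GW6471.

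Levels varied less between the libraries than those of other genes. The ratio of the highest to the lowest library had a median of 1.16 over the members and 1.28 over all genes tested, and ran from 1.06 to 1.66 among the members. The coefficient of variation over the 4 libraries had a median of 6.72% against 11.05%. The order of the libraries was also shared by many members. GW6471 was the lowest library for 70 of 77 members, against 20.5% of all genes tested, and CLA was the highest for 43, against 34.7%. No member was lowest in CLA and none was highest in GW6471, against 34.6% and 18.9% of all genes. Among 36 other genes of similar mean level (744 to 1890 FPKM), CLA was highest for 18 and lowest for 8, and GW6471 highest for 2. Among 915 other genes of similar coding length, CLA was highest for 38.5% and lowest for 28.7%, and GW6471 highest for 7.65%.

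In CLA against Vehicle, the ribosomal protein genes differed little. The median log2 ratio was 0.026, with 54 members higher and 23 lower, beside a median of -0.0071 over all genes tested, of which 48.9% were higher. With the libraries scaled to a common FPKM sum the direction flipped, to a median of -0.0046 with 35 members higher and 42 lower. None of the 77 passed 1.5-fold, against 12.3% of all genes tested in either direction, and the SD of the ratios was 0.12 against 0.41. Outside their counting intervals, 32 of 76 members were higher, against 25.9% of the 9762 genes tested that had a coding length and so an interval, and 11 lower, against 26.5%. Abundant genes have narrower intervals and pass them more easily, and of 35 other genes of similar mean level (744 to 1890 FPKM) 19 were higher and 14 lower outside theirs.

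A few small proteins stood apart at the high end of this comparison. Rpl37a, a zinc-binding 60S protein, had 416 FPKM in Vehicle, 618 with CLA, 442 with GW6471 and 373 with both. The CLA library was far above the other 3, with a log2 ratio to Vehicle of 0.57 (counting interval 0.49 to 0.65), just inside the 1.5-fold limit. Rpl38, known for its part in the translation of Hox mRNAs, had 1144, 1412, 1200.1 and 1179 FPKM, and its log2 ratio was 0.30 (0.25 to 0.36). Rps29, a zinc-binding 40S protein, had 425, 523, 403 and 467 FPKM, giving 0.30 (0.20 to 0.40). Rpl41 had a log2 ratio of 0.31, with no interval since its coding length was not in the annotation used. In all 4 genes the CLA library was the highest of the 4. At the other end, Rpl37 (315, 281, 239 and 302 FPKM), another zinc-binding 60S protein, had a log2 ratio of -0.17 (-0.27 to -0.069), and Rpl34 had -0.17 with an interval that included 0 (-0.49 to 0.13). Rpsa, the 40S protein also described as a laminin receptor, had the ratio nearest to the group's median, at 1412, 1437, 1319 and 1462 FPKM.

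In GW6471 against Vehicle, the ribosomal protein genes were lower nearly throughout. Of 77 members, 73 were lower and 4 higher, while 49.2% of all genes tested were higher, and the median log2 ratio was -0.14 (all genes -0.0041). The shift was narrow, with an SD of 0.10 against 0.31 over all genes, and none of the members passed 1.5-fold, against 5.38% of all genes. Below their counting intervals were 67 of 76 members, against 19.8% of the 9762 genes with an interval and 18 of the 35 of similar level.

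The largest differences of this comparison were those of Rpl34, with -0.56 on the log2 scale (counting interval -0.89 to -0.23), and of Rpl37, at -0.40 (-0.50 to -0.30). The division of reads between Rpl34 and its far more abundant copy Rpl34-ps1 is uncertain, and the copy had -0.20. Rplp1, an acidic protein of the stalk that recruits translation factors, had 2287 FPKM in Vehicle, 2116 with CLA, 1808 with GW6471 and 2336 with both, and a log2 ratio of -0.34 (-0.37 to -0.30). Rps15a followed at -0.32 (-0.49 to -0.15). The 4 members on the other side were Rpl22 at 0.11 (-0.046 to 0.27), Rpl37a at 0.088 (0.0036 to 0.17), Rpl38 at 0.069 (0.011 to 0.13) and Rps26 at 0.021 (-0.0020 to 0.044). Only the intervals of Rpl37a and Rpl38 lay above 0.

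Short genes outside the group were also lower in the GW6471 library. Among 915 other genes whose coding length lay in the middle range of the members', the median log2 ratio of GW6471 against Vehicle was -0.11, with 595 lower and 318 higher. GW6471 was the lowest library for 324 of them (35.4%), between the share of all genes and that of the ribosomal protein genes. Over 9686 genes outside the group, coding length and this ratio had a Spearman correlation of 0.22, and over 76 members it was 0.056. The part of coding length in the result was not tested. Among 36 other genes of similar mean level (744 to 1890 FPKM), the median was -0.024, with an SD of 0.29, and GW6471 was the lowest library for 10. Members with under 50% of their 50-base stretches elsewhere in the genome had nearly the median of the group, -0.13 over 11 genes, and 9 of these 11 were lowest in GW6471.

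In CLA+GW6471 against GW6471, the same group was higher, with 71 members up and 6 down against 50.4% of all genes tested higher, and a median log2 ratio of 0.14 (all genes 0.0041). This comparison shares the GW6471 library with the preceding one, so that library's low values enter both. With the libraries scaled to a common FPKM sum the median was 0.077, with 64 higher and 13 lower. Above their counting intervals lay 64 of 76 members, against 22.0% of the 9762 genes and 18 of the 35 of similar level. The 915 other genes of similar coding length were also higher here, with a median of 0.13 (602 higher and 313 lower), and the 182 other genes with under 300 nt had 0.12. The 1.5-fold limit was passed upwards by Rpl34 and Rps28, 2 of 77, against 6.69% of all genes in either direction. Rps28, a small 40S protein near the mRNA exit, had 840 FPKM in Vehicle, 920 with CLA, 675 with GW6471 and 1034 with both. Its log2 ratio was 0.62 (0.55 to 0.69), and that of Rpl34 was 0.65 (0.32 to 0.97), while the copy Rpl34-ps1 had 0.22. Rps27l (0.39) and Rps27 (0.38) came next, and Rps27 had 1994, 2045, 1763 and 2289 FPKM. In Rps28 and Rps27 the CLA+GW6471 library was the highest and GW6471 the lowest.

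In CLA+GW6471 against CLA, 30 members were higher and 47 lower (50.9% of all genes higher), with a median log2 ratio of -0.032. Outside their counting intervals, 35 of 76 members were lower and 18 higher, against 28.2% and 28.4% of the 9762 genes, and 19 and 15 of the 35 of similar level. The SD was 0.15 against 0.46 over all genes. Rpl37a was the only member past 1.5-fold, at a log2 ratio of -0.73 (-0.81 to -0.65), against 16.0% of all genes in either direction. Rpl22 (-0.50), Rpl41 (-0.34) and Rps21 (-0.26) followed. Rps21, a short 40S protein, had 910.0 FPKM in Vehicle, 1087 with CLA, 875 with GW6471 and 904 with both, so its CLA library stood alone. The highest ratios were those of Rpl34 (0.26), Rps28 (0.17), Rps27 (0.16) and Rpl23 (0.15). The copy Rpl34-ps1 had -0.021. Rpl23, which binds MDM2, had 1421, 1399, 1323 and 1554 FPKM. CLA+GW6471 and Vehicle lay closest to each other, with 36 members higher and 41 lower, a median log2 ratio of -0.0025 and an SD of 0.080 (all genes 0.20).

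**Figure D2:**
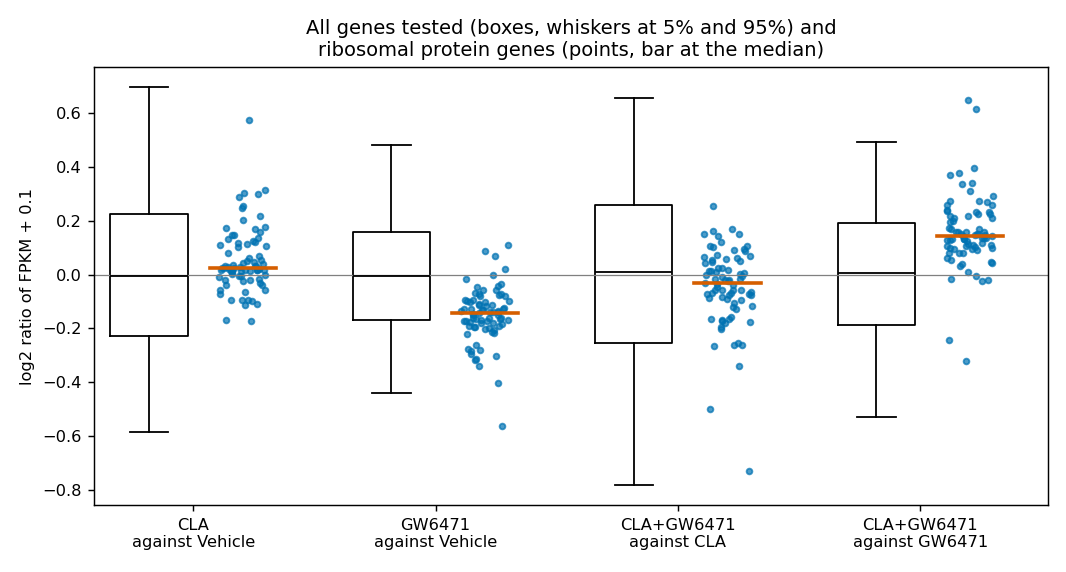
Log2 ratios of FPKM + 0.1 in the 4 comparisons, with boxes for the 10355 genes tested (middle 50% of the genes, whiskers at the 5% and 95% points) and points for the 77 ribosomal protein genes, whose median is the orange bar. The points lie mostly below 0 in GW6471 against Vehicle (median -0.14) and above it in CLA+GW6471 against GW6471 (median 0.14). In CLA against Vehicle they sit around 0.026, a median that turned to -0.0046 when libraries were scaled to a common FPKM sum.

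The shortest coding sequences showed the largest spread. In CLA against Vehicle the ratios of the 9 members with under 300 nt had a median of 0.25 on the log2 scale (8 higher and 1 lower), and the 67 members with at least 300 nt had 0.021. Besides Rpl37a, Rpl38, Rps29 and Rps21, the high values included Rpl39, a 60S protein lining the tunnel, at 0.25 (0.11 to 0.39). The exception was Rpl37. Coding length and this ratio had a Spearman correlation of -0.36 over 76 members, which share both libraries, and -0.037 over 9686 other genes. Among the 182 other genes with under 300 nt, the median was 0.075. In GW6471 against Vehicle these 182 genes had a median of -0.069, with 120 lower, and the 9 short members had -0.12.

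**Figure D3:**
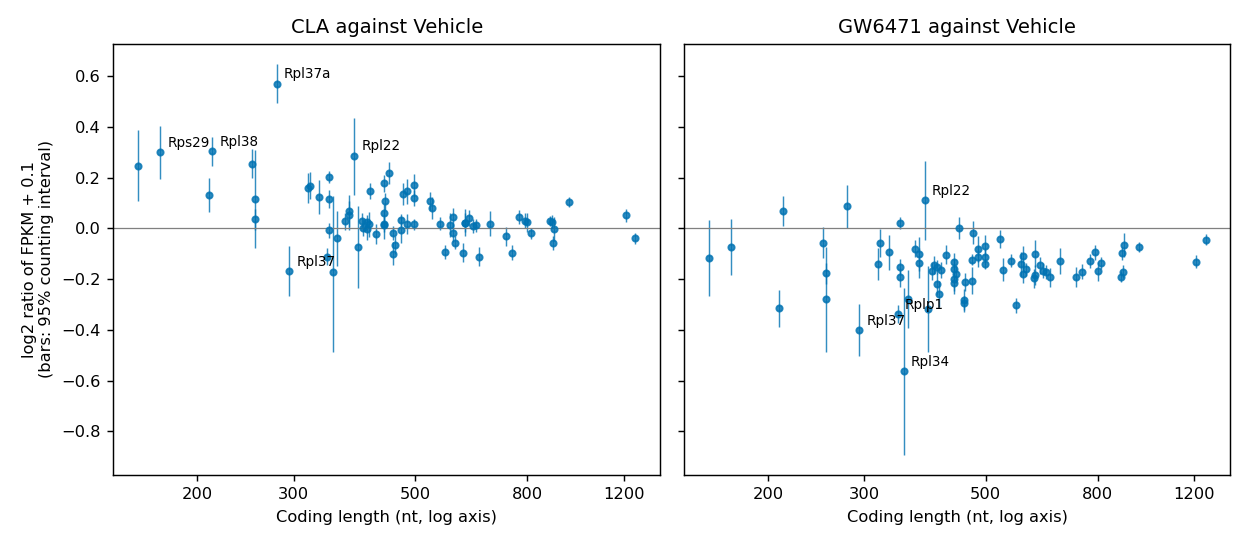
Log2 ratio of FPKM + 0.1 against coding length in nt (log axis) for 76 ribosomal protein genes, in CLA against Vehicle on the left and GW6471 against Vehicle on the right, with bars for the 95% counting interval. Members with under 300 nt scatter widely, from -0.17 to 0.57 in the first comparison, and longer ones lie near 0.021 there and near -0.15 in the second (medians, FPKM as deposited).

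The effect of CLA without and with the antagonist was set side by side, a pair of comparisons that share no library. Across the 77 members, the CLA ratio without GW6471 and that with GW6471 had a Spearman correlation of -0.50, and across all 10355 genes -0.67. In 13 members the ratio was outside its counting interval in both comparisons and in opposite directions, 13 of the 76 with an interval, while 30.1% of the 9762 genes with an interval met the same criterion. Rpl37a and Rpl22 were higher with CLA alone and lower with CLA on top of GW6471, and the other 11 went from lower to higher. Rpl10a, a 60S protein, was among the latter, with 909 FPKM in Vehicle and 842 in CLA, then 795 in GW6471 and 935 in CLA+GW6471. Rpl22 went from 0.29 (0.13 to 0.44) to -0.32 (-0.49 to -0.16).

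**Figure D4:**
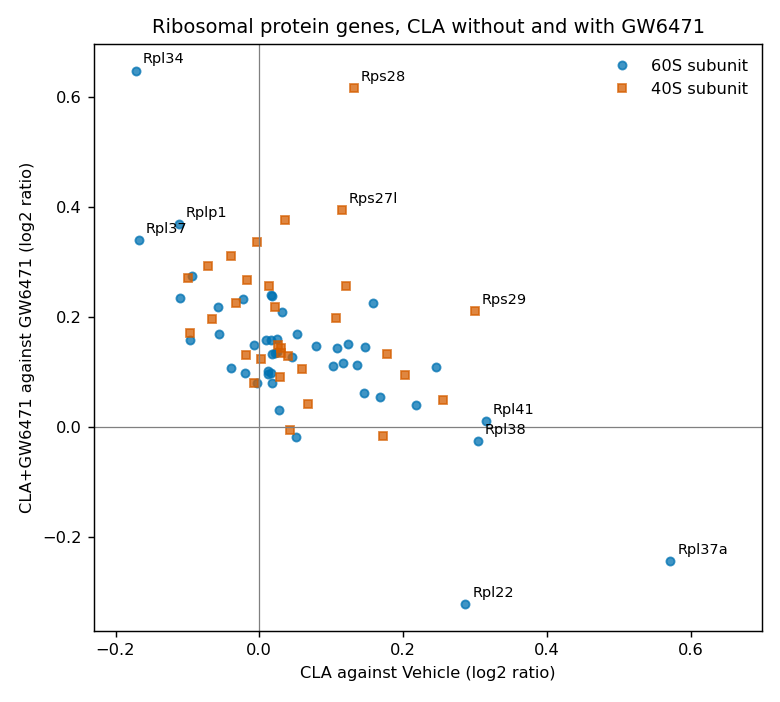
Log2 ratio of CLA against Vehicle (horizontal) and of CLA+GW6471 against GW6471 (vertical) for 77 ribosomal protein genes, with circles for the 60S and squares for the 40S subunit. Most points lie above the horizontal line, Rpl34 (-0.17 and 0.65) is at the upper left, and Rpl37a (0.57 and -0.24) is at the lower right.

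The 2 subunits moved alike. In GW6471 against Vehicle, 43 of 46 60S genes and 30 of 31 40S genes were lower, with median log2 ratios of -0.13 and -0.18. In CLA+GW6471 against GW6471, 42 of 46 and 29 of 31 were higher, with medians of 0.14 and 0.17. The stalk proteins Rplp0 and Rplp2 went with the group in GW6471. Rplp0, the anchor of the stalk, had 2421, 2600.0, 2301 and 2483 FPKM, and Rplp2 had 1988, 2156, 1739 and 1885 FPKM. Both were highest in CLA, with log2 ratios of 0.10 and 0.12 to Vehicle, whereas Rplp1 stood at -0.11. Rpl3, a protein of the peptidyl transferase centre, had 1058, 1096, 966 and 954 FPKM, so it was low in both libraries with GW6471, and its CLA+GW6471 ratio to Vehicle was -0.15 (-0.18 to -0.12).

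Promoter motifs were described for the 58 windows. The letters CTCTTTC on the sense strand, a core of the TOP tract, were in 12 of the windows (20.7%), against 3.91% of all windows and 3.70% of those of 8414 of the genes tested. CCGGAAG, a motif of ETS factors such as GABP, was on either strand in 23 (39.7%, against 9.12% and 20.5%). GGGCGG, an SP1 motif, was in 34 (58.6%, against 35.9% and 67.2%), AAGATGGC, a YY1 motif, in 4 (6.90%, against 2.88% and 5.21%), and TATAAA, on the sense strand, in 5 (8.62%, against 8.88% and 4.04%). The end of CCGGAAG and the start of AAGATGGC share letters, so both can lie on overlapping bases, and CTCTTTC is itself a run of pyrimidines. The ratios of members with and without the first 2 motifs were set side by side, with no test. In GW6471 against Vehicle, the median log2 ratio was -0.16 for the 12 members with CTCTTTC and -0.14 for the 45 without, and -0.12 for the 23 with CCGGAAG and -0.17 for the 34 without. In CLA against Vehicle, the medians were 0.044 and 0.026 for the first motif and 0.053 and 0.016 for the second. The length of the longest pyrimidine run had Spearman correlations of 0.24 with CLA against Vehicle, 0.23 with GW6471 against Vehicle, -0.40 with CLA+GW6471 against CLA and -0.33 with CLA+GW6471 against GW6471, over 57 members that share the same 4 libraries.

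Other genes of ribosome production and translation were set beside the group. Mitochondrial ribosomal protein genes had medians of -0.12 in GW6471 against Vehicle (62 of 76 lower) and 0.19 in CLA+GW6471 against GW6471 (62 of 76 higher). Of all 10355 genes tested, 5237 were lower in the first and 5223 higher in the second. Of the 915 genes of similar coding length, 595 were lower (median -0.11) and 602 higher (median 0.13). The GW6471 library was the lowest for 39 of the 76, against 20.5% of all genes tested and 35.4% of the 915 genes of similar coding length. Mrpl13, the highest of them, had 161, 147, 147 and 165 FPKM.

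Ribosome biogenesis factors differed from the proteins of the ribosome in the CLA library. Of 62 factors, 57 were lower in CLA than in Vehicle, beside 5269 of the 10355 genes tested, with a median log2 ratio of -0.32. The 1.5-fold limit was passed downwards by 12 of the 62, against 4.95% of all genes tested. In GW6471 against Vehicle 57 of the factors were also lower, beside 5237 of the 10355 genes, with a median of -0.22. Nop56, a core protein of the box C/D snoRNPs, had 203 FPKM in Vehicle, 122 with CLA, 152 with GW6471 and 205 with both. Rrp12, a factor of subunit export, had 15.03, 7.16, 11.4 and 15.99 FPKM. For both genes Vehicle and CLA+GW6471 lay together, above GW6471 and then CLA. RNA polymerase I and its factors had medians of -0.26 in CLA against Vehicle (17 of 20 lower) and -0.19 in GW6471 against Vehicle. Myc, a transcription factor that drives ribosome production, had 387, 204, 280 and 409 FPKM. Deptor, an inhibitor of mTOR, went the other way with 3.85, 8.19, 7.04 and 3.66 FPKM, and the list of mTOR, MYC and S6 kinase genes had medians of -0.13 and -0.060 over 23 genes.

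Translation factors were lower in CLA against Vehicle in 25 of 30 genes, with a median of -0.17, beside 5269 of the 10355 genes tested. They were led by Eif1, a start codon selection factor, at 897, 517, 633 and 1073 FPKM. TOP genes that are not ribosomal proteins had medians near 0 in all 4 comparisons, 0.00078 in CLA against Vehicle, -0.040 in GW6471 against Vehicle, -0.022 in CLA+GW6471 against CLA and -0.014 in CLA+GW6471 against GW6471, over 20 genes. In GW6471 against Vehicle 15 of these 20 were nonetheless lower, 12 of them beyond the counting interval, beside 18 of the 35 genes at the level of the ribosomal protein genes and 19.8% of the 9762. Eef1a1, the most abundant elongation factor and a TOP gene, had 6267, 6351, 6169 and 6187 FPKM, nearly level over the 4 libraries. Proteasome subunits, another large complex, had medians of 0.052 and -0.084 in the first 2 of these comparisons over 37 genes, and 8 cell cycle genes had 0.025 and -0.19.

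**Figure D5:**
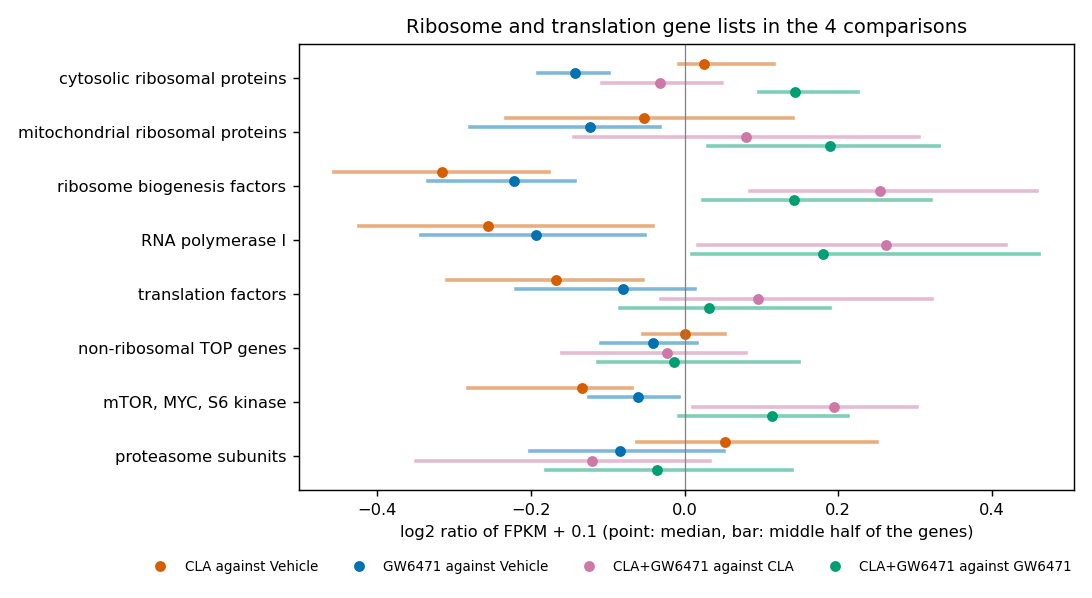
Median log2 ratio of FPKM + 0.1 (point) and middle 50% of the genes (bar) for 8 gene lists, in 4 colours for the 4 comparisons. The cytosolic ribosomal proteins have the narrowest bar in GW6471 against Vehicle, around -0.14, and in CLA against Vehicle they stay near 0 (0.026, or -0.0046 with a common FPKM sum) where ribosome biogenesis factors stand at -0.32.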

How the data were processed

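Liver RNA-seq libraries were compared as labelled, 1 per group. Per the methods and the submitters' processing notes, the authors mapped reads to mm9 with BWA and Bowtie and quantified genes with Cufflinks, and their versions are not given in the sources used here. FPKM with 2 decimals were deposited by the authors. The deposited values carry no unit. They were taken as FPKM because the authors, per the methods, quantified normalized gene expression with Cufflinks before the values were deposited. The methods themselves do not name FPKM. Columns left unused numbered 0. Members and lists were chosen with earlier results of these data known. Ratios were taken on log2(FPKM + 0.1), without rescaling, in Python 3.11.15 (numpy 2.4.6, pandas 2.3.3, scipy 1.17.1, numba 0.67.0, matplotlib 3.10.9). Genes with a mean of at least 1 were compared. No test was made.

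Depth was estimated from the steps between FPKM times length (0.02 to 0.5, lengths in kb) of genes under 1000 nt. Counting intervals used that depth and the coding length of 1 transcript per gene in GENCODE vM1 on mm9, so they are approximate and, for genes with long untranslated regions, too wide. They leave out the uncertain division of reads among copies elsewhere in the genome, and for members with many copies they may be too narrow. Stretches of 50 bases were matched exactly to mm9 on both strands. The steps were tested on simulated data.

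The named members were the 6 highest and 6 lowest by mean, the 4 highest and 4 lowest ratios in each comparison, the stalk proteins, lettered paralogs and the member nearest the median ratio of CLA against Vehicle. Of each list, the genes with the highest mean and with the highest and lowest ratio of CLA against Vehicle could be named. Alb, Trf, Fgb, Hnf4a, Ass1, Ttr, Apoh, Cyp2e1, Dcn, Rpl34-ps1, Sprr1a and the printed windows were chosen after their values were seen. Alternatives were another pseudocount, filter, scaling, summary or member set. Scaling by the sum of other genes, subsets by coding length and by copies elsewhere, the addition of Rps3a1 and Fau, and CLA+GW6471 against Vehicle were chosen after seeing the data. The list of ribosomal protein genes outside the symbol rule is not reported here.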

Additional observations from a re-analysis of the deposited data

Results flagged for a closer look

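In 5 of the named ribosomal protein genes, the CLA ratio had opposite directions without and with GW6471, outside the counting interval both times. The values are differences of log2 ratios, CLA+GW6471 against GW6471 minus CLA against Vehicle, and with 1 library per condition the difference itself was not tested. Rplp1 went from -0.11 to 0.37, a difference of 0.48. Rpl37 went from -0.17 to 0.34, a difference of 0.51, and Rpl10a from -0.11 to 0.23, a difference of 0.34. Rpl37a went the other way, from 0.57 to -0.24, a difference of -0.82, and so did Rpl22, from 0.29 to -0.32, a difference of -0.61. Across all genes tested, the same pair of ratios had a Spearman correlation of -0.67, and 30.1% of the 9762 genes with an interval were opposite beyond both intervals.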

How the results depend on the processing

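The median log2 ratio of the ribosomal protein genes changed direction under 1 alternative, in CLA against Vehicle, where scaling to a common FPKM sum gave -0.0046 in place of 0.026. The same scaling gave -0.10 where GW6471 was compared with Vehicle and 0.077 for CLA+GW6471 against GW6471, and scaling by the sum of the other genes gave 0.099 in the latter. Scalings moved the median of all genes by at most 0.065 in size. The share of the FPKM sum without the 10 highest genes was 17.8, 17.9, 16.6 and 17.9% in Vehicle, CLA, GW6471 and CLA+GW6471. Over genes with a mean of at least 1 it was 20.6, 20.96, 19.3 and 20.4%. GW6471 was the lowest library under each of these sums. The other 52 values kept their direction and moved by no more than the median half-width of a counting interval. That half-width exceeds the median of CLA against Vehicle itself, which was 0.0025 with scaling by the sum of the other genes (41 higher and 36 lower), 0.057 as the ratio of summed FPKM and 0.045 over members with few copies elsewhere. No paired analysis was possible because each group has 1 library. Leaving out a replicate was not possible for the same reason. At the depth of these libraries, half-widths of counting intervals had a median of 0.037 to 0.038 (log2), and the spread between animals is unknown.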
